A study of Caenorhabditis elegans with 2 samples.

Results

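DNA replication copies the genome once in each S phase. Origin recognition and licensing factors load the MCM helicase onto DNA, CDC45 and GINS switch it on, polymerases and primase make new strands with the sliding clamp PCNA and its loader, and ribonucleotide reductase and thymidylate synthase supply the deoxynucleotides. In animals many of these genes are known targets of E2F transcription factors, among which the atypical members, related to mammalian E2F7 and E2F8, act mostly as repressors. EFL-3 is the atypical E2F family protein of Caenorhabditis elegans whose binding was mapped here.

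The 41 genes described are a list of DNA replication and nucleotide supply genes, given by gene name, out of 19973 protein-coding nuclear genes in the Ensembl release 115 annotation of WBcel235. All 41 names were found. Chromatin immunoprecipitation with sequencing used an anti-GFP antibody on whole L1 larvae of pooled sex, aged 6 hours, that had been starved after bleaching. The only group was strain OP344, which has the unc-119(tm4063) mutation and the insertion wgIs344, carrying F49E12.6 (the sequence name of efl-3) with TY1, EGFP and 3xFLAG tags beside a rescuing unc-119(+). Both replicates are labelled as biological replicates of this strain, and no condition was compared, so every count is a description without a test. Whole larvae were used, so there was no cell type to check against markers and a peak does not tell in which cells the protein was bound. The tagged protein came from a transgene in a single transgenic line.

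The authors' pooled list held 30000 peaks, of which 259 had a q-value below 0.05, and the list of each replicate held 30000 too. Their reproducible set, thresholded by the irreproducible discovery rate, held 430 peaks, which were also the 430 strongest of the pooled list. Strength is given as the deposited signal value, a unitless measure of enrichment that can be compared within a list but not between lists. Read depth is not in the files used and is unknown. A gene was called bound where a reproducible summit lay in its promoter window, which reached 1000 bp upstream and 500 bp downstream from every annotated transcript start. Coordinates are on ce11.

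EFL-3 was bound at 7 of the 41 genes (17.1%), against 1.94% of all protein-coding genes (387 of 19973). The 7 were pcn-1 (PCNA, the sliding clamp), rpa-2 (a subunit of the single-strand binding protein RPA), mcm-2 (a subunit of the replicative helicase), tim-1 (the Timeless homolog), rfc-4 (a clamp loader subunit), pole-1 (the catalytic subunit of polymerase epsilon) and mcm-10 (a helicase activation factor). In the list of replicate 1 taken alone, 8 members had one of its 430 strongest peaks in the window, against 1.85% of all genes. In the list of replicate 2 the count was 5, against 1.65% of all genes. A peak of any strength in the pooled list was present at 26 of the 41 members (63.4%), against 43.7% of all genes.

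The sequences under 3 of these summits are shown because they differ in whether they hold the E2F consensus. They were read from the RefSeq genome of the same assembly, on the strand of the gene and 5′ to 3′, over 221 bases centred on the summit: chrIV:4049603-4049823 for pcn-1 and chrII:12006741-12006961 for mcm-2, both on the reverse strand, and chrIII:11317170-11317390 for mcm-10, on the forward strand. Capitals at pcn-1 mark the reverse complement of TTTCGCGC, 1 of the 4 versions of the consensus searched (TTTCCCGC, TTTCGCGC, TTTGCCGC and TTTGGCGC, on both strands). Capitals at mcm-2 and mcm-10 mark a match to the consensus without its first T, since the full consensus was not among their letters.
pcn-1: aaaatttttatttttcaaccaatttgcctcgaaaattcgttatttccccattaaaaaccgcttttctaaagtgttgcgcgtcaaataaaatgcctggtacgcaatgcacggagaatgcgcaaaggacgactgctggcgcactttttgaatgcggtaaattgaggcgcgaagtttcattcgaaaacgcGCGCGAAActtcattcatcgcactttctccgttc
mcm-2: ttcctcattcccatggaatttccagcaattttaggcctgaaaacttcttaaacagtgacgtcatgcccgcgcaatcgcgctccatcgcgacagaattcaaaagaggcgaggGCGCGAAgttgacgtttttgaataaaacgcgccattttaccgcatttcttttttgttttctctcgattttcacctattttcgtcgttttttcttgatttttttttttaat
mcm-10: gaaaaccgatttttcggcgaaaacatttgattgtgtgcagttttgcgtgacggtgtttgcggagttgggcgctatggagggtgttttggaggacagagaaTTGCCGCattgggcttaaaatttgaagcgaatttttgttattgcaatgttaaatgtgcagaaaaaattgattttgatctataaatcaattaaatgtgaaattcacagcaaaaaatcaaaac

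The clamp, clamp loader and RPA genes held the strongest peak. At pcn-1 (WBGene00003955) the pooled summit, at position 4049713 of chromosome IV, lay in intergenic sequence 265 bp upstream of the start, with a signal of 399.6 and rank 4 of the pooled list. The replicate lists gave this peak a signal of 232 in replicate 1 and 167 in replicate 2, with ranks of 4 and 10. Both replicates thus placed it among their strongest peaks.

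The rpa-2 peak, 585 bp upstream of the start, had a pooled signal of 169.9. Its signal was 96.7 in replicate 1 (rank 96) and 74.1 in replicate 2 (rank 137). The rfc-4 peak, 169 bp upstream, had a pooled signal of 114, with 68.1 in replicate 1 (rank 243) and 51.4 in replicate 2 (rank 386). Both peaks were thus among the strongest 430 of each replicate. The rfc-4 summit lay in the annotated miRNA gene cel-mir-5549 and also in the promoter window of eef-1A.1, a translation elongation factor gene. Of the other 5 genes of this group, rfc-2 (51.2), rfc-1 (46.0) and ctf-18 (44.1; part of an alternative clamp loader) had weaker pooled peaks, while rfc-3 and rpa-1 had none. Within RPA, the rpa-2 peak had rank 108 of the pooled list, while the rpa-1 window held no pooled peak.

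Among the helicase and initiation genes, mcm-2 and mcm-10 were bound. The mcm-2 summit lay at 12006851 on chromosome II, 226 bp upstream of the nearest start, with a pooled signal of 167. Its signal was 109 in replicate 1 (rank 76) and 57.6 in replicate 2 (rank 263). The mcm-10 summit, 290 bp upstream, had a pooled signal of 110.5, with 89.6 in replicate 1 (rank 121) and 22.9 in replicate 2 (rank 16255). Replicate 1 thus held a strong peak there and replicate 2 one far down its list. The summit also lay in an intron of teg-1, and a start of that gene was nearer, at 225 bp.

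The 6 subunits of the MCM ring differed widely. After mcm-2, the pooled signals were 84.4 at mcm-5, 59.1 at mcm-4, 57.7 at mcm-3 and 56.2 at mcm-7, and mcm-6 had no pooled peak. At mcm-5 the summit lay 163 bp upstream, and its signal was 55.1 in replicate 1 (rank 409) and 40.2 in replicate 2 (rank 1163). It was thus in the strongest 430 of replicate 1 but not of replicate 2. The strongest mcm-4 peak lay 11 bp from an annotated transcript start inside the gene and 3155 bp from the most upstream start. A weaker pooled peak of mcm-4, with a signal of 40.5 and rank 16363, lay 166 bp upstream of the most upstream start. The mcm-3 peak, 107 bp downstream of the start in coding sequence, was found in replicate 2 (rank 998), while no peak of replicate 1 lay in the window.

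The remaining initiation genes gave weak peaks or none. Those of psf-3 (40.05; a GINS subunit) and evl-18 (37.97; the CDC45 homolog) ranked 16980 and 19936 of the pooled list. The other GINS genes psf-1 and psf-2 had no pooled peak.

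Of the polymerase and primase genes, pole-1 was bound. Its summit lay in intergenic sequence 132 bp upstream of the start, with a pooled signal of 112. The signal was 70.3 in replicate 1 (rank 231) and 47.1 in replicate 2 (rank 524). The polymerase epsilon subunit gene pole-2 (57.4), the primase subunit gene pri-2 (52.0) and the polymerase alpha subunit gene div-1 (47.6) had weaker pooled peaks, and pri-1, for the other primase subunit, had none. The div-1 peak had a counterpart within 100 bp in replicate 1 (rank 3843) but none in replicate 2.

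Genes for strand maturation and fork components included 1 bound gene, tim-1. It had 2 reproducible summits, 272 and 478 bp upstream of its start, with pooled signals of 157 and 103. The stronger had 73.1 in replicate 1 (rank 202) and 79.6 in replicate 2 (rank 111), so it was among the strongest 430 of each. This summit was nearer to the start of Y75B8A.23, at 224 bp, and lay within 100 bp of 2 annotated noncoding genes, the ncRNA gene Y75B8A.49 and the spliced-leader snRNA gene sls-2.8. The fork component gene ctf-4 had a pooled signal of 82.4 at a start of its neighbour eef-1G, and dna-2, for a helicase-nuclease, had 74.0. The ligase gene lig-1 and the flap endonuclease gene crn-1 had no pooled peak.

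None of the 4 nucleotide supply genes and none of the 8 licensing genes was bound. With 1.94% of all genes bound, the lack of a bound gene in groups this small says little about them. The ribonucleotide reductase genes rnr-1 (large subunit) and rnr-2 (small subunit) had pooled signals of 64.2 and 52.9, the thymidylate synthase gene tyms-1 had 39.99, and the dUTPase gene dut-1 had no pooled peak. Of the 8 licensing genes, cdc-6 came closest to the threshold with 89.8, with 48.3 in replicate 1 (rank 677) and 41.9 in replicate 2 (rank 924). Its summit lay 40 bp from the start of the neighbour acin-1. The origin recognition gene orc-4 had 39.6. No pooled peak lay in the windows of orc-1, orc-2, orc-3, orc-5, the licensing factor gene cdt-1 or the geminin gene gmn-1. The weakest bound member was mcm-10, at 110.5, and the strongest member below the threshold was cdc-6. The weakest peak of the reproducible set had a signal of 94.8.

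**Figure D1:**
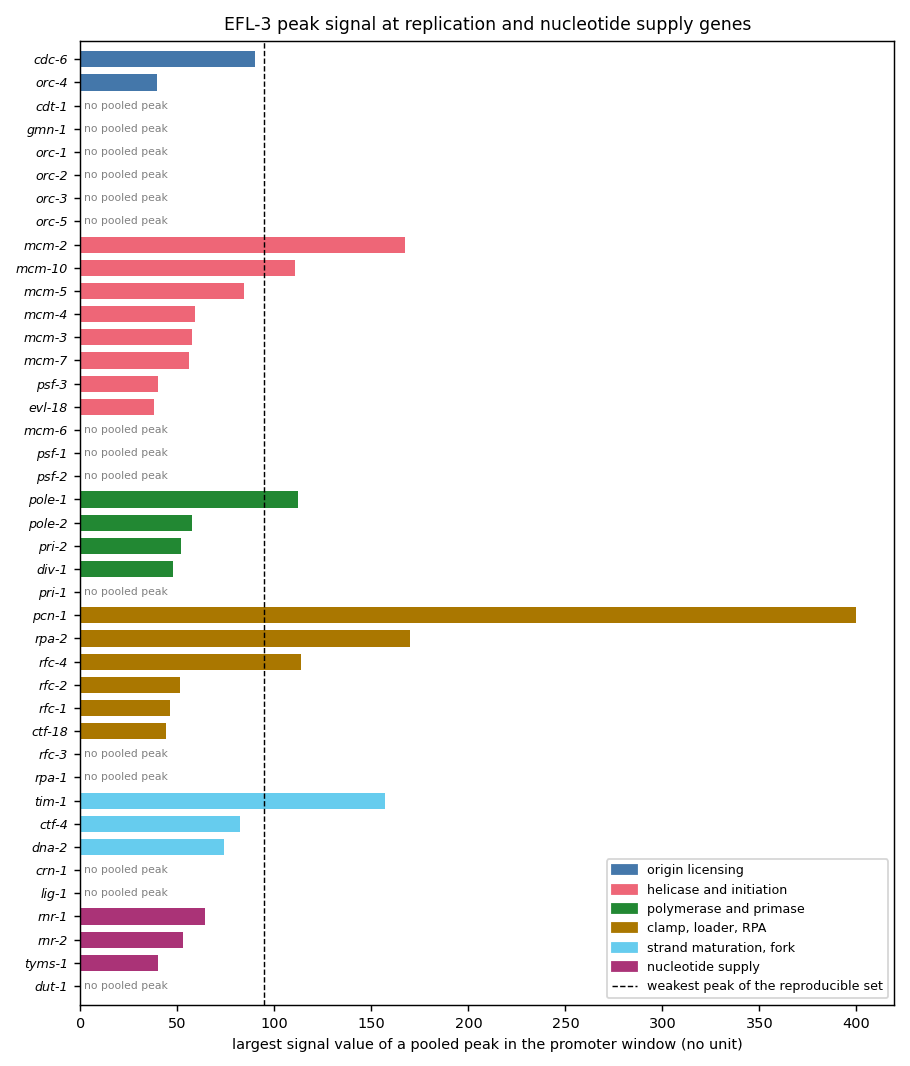
Largest pooled signal value (no unit) in the promoter window of each of the 41 genes, coloured by role, with the weakest reproducible peak as a dashed line. The bars of 7 genes pass the line, pcn-1 is farthest from it at 399.6, and 15 genes have no pooled peak.

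The 19 members with a weaker pooled peak had signals from 37.97 to 89.8, with a median of 52.9. Over all 26 members with a pooled peak the median was 58.4, and over the 8728 genes of the genome with such a peak it was 44.8. With genes without a peak counted as 0, the median was 46.0 over the 41 members and 0 over all genes.

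The replicates differed in how strong they placed many of the members' peaks. A peak of each replicate lay in the window of 20 members (48.8%), against 27.5% of all genes. Of the 26 strongest pooled summits, 16 had a summit of both replicates within 100 bp, 7 of replicate 1 alone and 2 of replicate 2 alone, and psf-3 had none. No share over all pooled summits is given for this matching, so these counts describe the members only. Among the 7 bound genes, pcn-1, rpa-2, mcm-2, tim-1 and rfc-4 were in the strongest 430 peaks of both replicates, while pole-1 and mcm-10 fell outside those of replicate 2. These 5 made up 12.2% of the 41 members, against 1.15% of all genes. No such share over all bound genes is given. Of the 15 members with no pooled peak, 6 had a peak in the list of replicate 2 and 2 in that of replicate 1, the highest being orc-1 at rank 3547 of replicate 1. The other 7, orc-2, orc-3, gmn-1, psf-1, pri-1, lig-1 and dut-1, had no summit in the window in any of these lists.

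**Figure D2:**
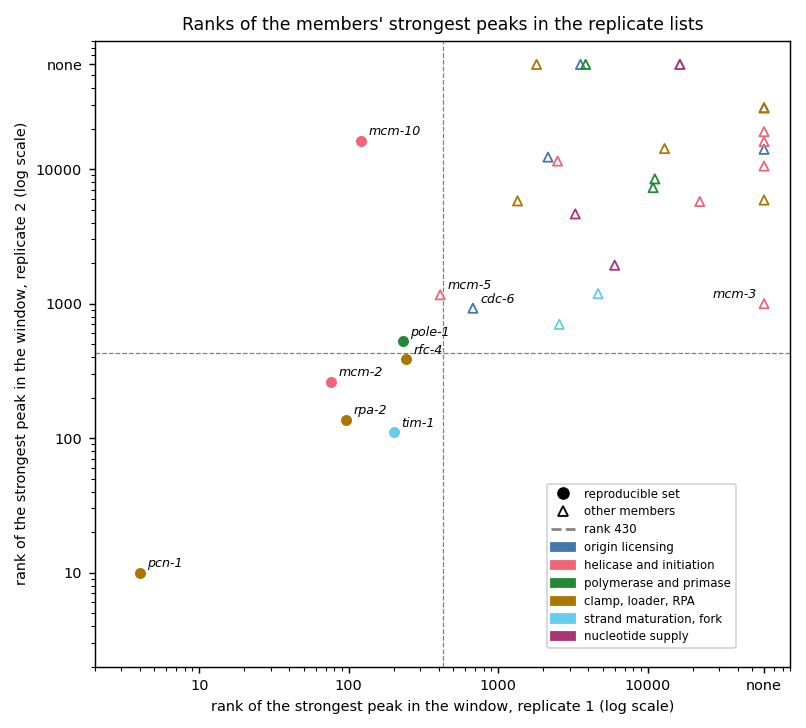
Rank of each member's strongest peak in the list of replicate 1 and of replicate 2 (log scales, rank 1 strongest), with members lacking a peak in a replicate at the end of its axis, marked none. Circles are members of the reproducible set: 5 lie below rank 430 in both lists, pole-1 at 231 and 524 and mcm-10 at 121 and 16255; 8 members with no peak in either list are not drawn.

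The windows held 39 pooled peaks in all, and 11 members had 2 or more. Of the 26 strongest summits, 21 (80.8%) were upstream of the nearest start of the member and 5 downstream, against 62.1% upstream for the strongest summits of the 8728 genes with a pooled peak. The window itself reaches farther upstream than downstream. The median distance from the start was 268.5 bp for the members and 305 bp for those genes. By annotation 13 were intergenic, 7 in coding sequence, 4 in introns, 1 in a 5′ UTR and 1 in a noncoding gene. For 18 the member had the nearest start, and 13 also lay within the window of at least 1 other gene. Among the bound genes, mcm-10, tim-1 and rfc-4 shared their summit with such a gene, and which gene a shared summit belongs to was not tested. The counts by annotation, nearest start and shared window have no share over all genes beside them. An upstream gene on the same strand ended within 500 bp of the start of 11 members (26.8%), against 18.1% of all genes. None of the 7 bound genes was among these, but pcn-1, with a gap of 558 bp, was just past the limit. No such share is given for all bound genes of the genome.

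The E2F consensus was frequent in the members' promoters whether or not EFL-3 had a peak there. Within 1000 bp upstream to 500 bp downstream of the most upstream start, 26 of the 41 members (63.4%) had a match, against 19.6% of all protein-coding genes. It was present at 5 of the 7 bound members, at 11 of the 19 with a weaker pooled peak and at 10 of the 15 with none. Among all genes the share was 22.2% of the 387 bound and 19.5% of the others. The bound genes without a match were mcm-2 and mcm-10. The consensus without its first T was present at the 7 bound members and at 34 of the 41 (82.9%), against 35.6% of all genes. It was present at 155 of the 387 bound genes of the genome (40.1%), so most bound genes lacked it.

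Matches were most frequent just upstream of the starts, where 22 of the 45 in the members' windows lay within 250 bp. In the narrower region from 250 bp upstream to 50 bp downstream, 19 of the 41 members (46.3%) had a match, against 4.7% of all genes. By EFL-3 peak, these were 4 of the 7 bound members, 10 of the 19 with a weaker pooled peak and 5 of the 15 with none. In the 250 bp before the start 18 members (43.9%) had a match, against 4.26% of all genes, while in the other parts of the window, each of 250 bp, the share was 4.88 to 14.6% of members and 2.91 to 4.30% of all genes. The GC content of this narrower region had a median of 36.2% in members and 34.2% over all genes, and in the whole window 37.8% and 35.2%.

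**Figure D3:**
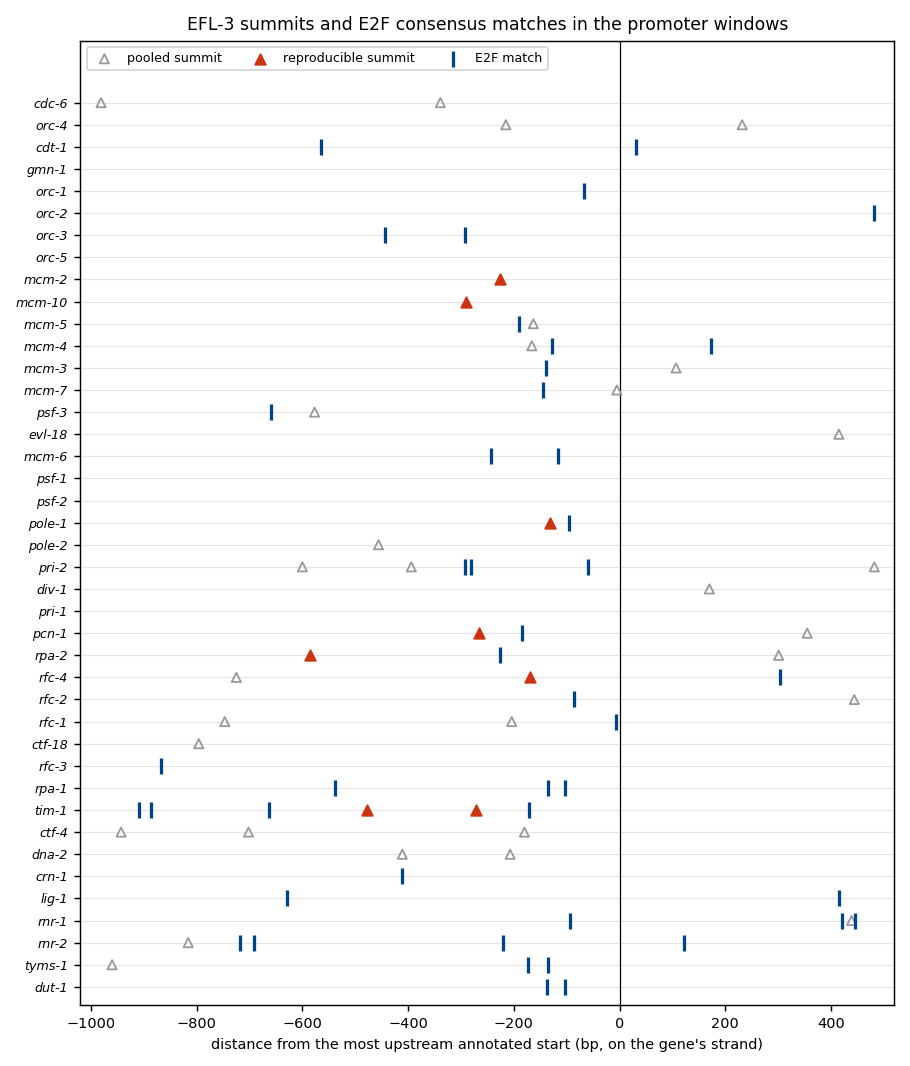
EFL-3 summits (triangles, filled for the reproducible set) and E2F consensus matches (vertical marks) by distance in bp from the most upstream annotated start, on the strand of each gene, for the 41 members. Marks gather in the 250 bp before the start, where 18 members have one, and appear in rows with and without a triangle. The strongest mcm-4 summit, 3155 bp downstream of the most upstream start, is outside the range drawn.

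The 45 matches in the members' windows did not overlap each other, and 12 members had 2 or more. The most, 4 each, were at tim-1 and rnr-2. The version TTTCGCGC made up 19 of them, at 17 members (41.5%), against 4.68% of all windows. TTTCCCGC was present at 11 members, against 6.58% of all windows, and TTTGCCGC and TTTGGCGC at 6 members each, against 6.34% and 4.56%. The TTTCGCGC sites within 250 bp upstream of 6 of these genes are shown with 6 bases on either side, on the strand that reads as the consensus, with the match in capitals. They lie at chrIII:10643051-10643070 (orc-1), chrV:15059730-15059749 (mcm-3), chrIII:9794114-9794133 (mcm-6), chrV:4347012-4347031 (mcm-7), chrIV:4049623-4049642 (pcn-1) and chrIII:12250326-12250345 (tim-1).
orc-1: cctcgaTTTCGCGCattttc
mcm-3: gcaaggTTTCGCGCgctcgc
mcm-6: cacagtTTTCGCGCctaatt
mcm-7: ttcgaaTTTCGCGCgtttgc
pcn-1: atgaagTTTCGCGCgcgttt
tim-1: ttgtttTTTCGCGCgctgtg

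Of these 6 genes pcn-1 and tim-1 were bound, mcm-3 and mcm-7 had weaker pooled peaks, and orc-1 and mcm-6 had none. Sites on chromosome I are not shown. There, TTTCGCGC also lay within 250 bp upstream of pole-1 and rpa-2, which were bound. The same held for mcm-4 and tyms-1, which had weaker pooled peaks, and for dut-1, which had none. The same 8 letters were thus present with a summit 81 bp away at pcn-1 and little more than 100 bp away at tim-1, and without any pooled summit in the window at orc-1 and mcm-6. By overlap of the peak interval, mcm-6 did have a pooled peak. In the replicate lists, orc-1 had a summit in replicate 1 (rank 3547) and mcm-6 in replicate 2 (rank 16026). Over all 45 matches the base just before the match was T at 21 and C at 2, and the base just after it was G at 20. No such counts over the matches of all genes are given, so these describe the members only.

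Few summits were centred on a match. Within 100 bp of the strongest pooled summit, 5 of 26 members (19.2%) had the whole consensus, against 7.44% of the 430 reproducible summits and 4.15% of all 30000 pooled summits. These were pole-1 and pcn-1, with the match 36 and 81 bp from the summit, and, below the threshold, mcm-5 (27 bp), psf-3 (82 bp) and rnr-1. At rnr-1 a pair of matches stood 7 and 18 bp from the summit, in an intron 439 bp downstream of the most upstream start. At rpa-2 the only match was 358 bp from the strongest summit, and at rfc-4 it was 473 bp away, downstream of the start. With the weaker peaks included, 7 of the 39 pooled summits in the members' windows lay within 100 bp of the centre of a match. No share over all summits is given for this count.

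The windows of mcm-5 and rnr-1 are printed because their pooled summits lie nearest to matches. They run over chrIII:4291319-4291539 for mcm-5 and chrIII:9228251-9228469 for rnr-1, both on the reverse strand, with consensus matches on either strand in capitals. The strongest summits of replicates 1 and 2 were 79 and 2 bp from the pooled one at mcm-5, and 7 and 175 bp from it at rnr-1. The rpa-1 stretch, at chrII:7664439-7664519 on the forward strand, holds 2 matches 136 and 103 bp upstream of the start of a gene with no pooled peak.
mcm-5: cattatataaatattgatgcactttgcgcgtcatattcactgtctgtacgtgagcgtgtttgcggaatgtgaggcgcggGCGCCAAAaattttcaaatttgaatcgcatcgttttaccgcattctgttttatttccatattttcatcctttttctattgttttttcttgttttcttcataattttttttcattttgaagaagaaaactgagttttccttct
rnr-1: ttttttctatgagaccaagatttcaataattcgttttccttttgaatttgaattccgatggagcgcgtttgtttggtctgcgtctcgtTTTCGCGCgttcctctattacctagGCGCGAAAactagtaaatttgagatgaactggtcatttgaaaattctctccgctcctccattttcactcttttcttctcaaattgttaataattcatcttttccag
rpa-1: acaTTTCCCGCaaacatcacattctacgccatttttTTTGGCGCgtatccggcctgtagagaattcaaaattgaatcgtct

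The matches often had a CHR element, the sequence bound by the DREAM complex subunit LIN-54 in worms, close by (TTTGAA or TTCGAA on either strand, letters that 99.5% of all windows hold). Of the members' 45 matches 33 (73.3%) had a CHR element within 50 bp, against 39.8% of the 5164 matches in the windows of all genes, which include the members. This pairing was present at 20 of the 41 members (48.8%), against 7.56% of all genes. Among the bound members it was found at pcn-1, rpa-2 and tim-1. Within 100 bp the contrast was smaller, at 38 of the members' matches (84.4%) against 58.6% of those of all genes, and pole-1 and rfc-4 joined the bound members with a pair. Both distances were chosen after the sequences had been seen.

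**Figure D4:**
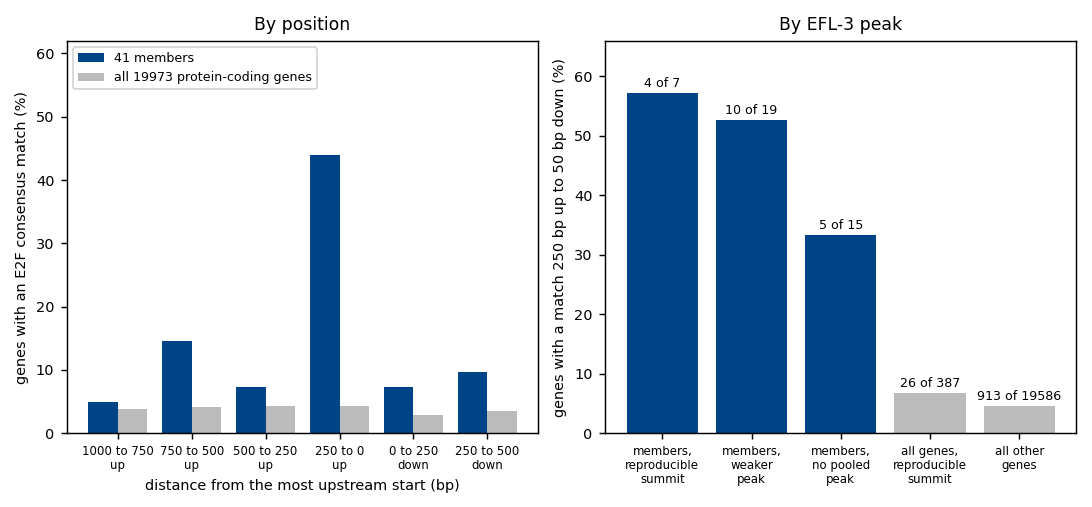
Left, share of the 41 members and of all 19973 protein-coding genes with an E2F consensus match in each 250 bp of the promoter window. Right, share with a match from 250 bp upstream to 50 bp downstream of the most upstream start, split by EFL-3 peak: 4 of 7, 10 of 19 and 5 of 15 members, against 26 of 387 bound genes and 913 of 19586 other genes of the genome (both of which include the members).

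A second list named 34 other genes of replication, chromatin assembly and nucleotide synthesis, of which 31 were found by name. Of these 31, 1 was bound, against 1.94% of all genes. This was clsp-1, the claspin gene of the replication checkpoint. Its peak had a pooled signal of 144 and ranks of 163 in replicate 1 and 186 in replicate 2. Its summit lay 240 bp upstream of its start and 25 bp from that of the translation elongation factor gene eef-2. The polymerase alpha gene pola-1 followed at 87.3, in the strongest 430 of replicate 1 but not of replicate 2. A pooled peak was present at 18 of the 31, against 43.7% of all genes. The E2F consensus was present in the narrower region at 10 of the 31 (32.3%), clsp-1 among them, against 4.7% of all genes.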

How the data were processed

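ChIP-seq was done on 2 biological replicates of 1 group, numbered as in the labels. The authors deposited 4 peak lists on ce11, 1 for each replicate, 1 for the pooled replicates and 1 thresholded by the irreproducible discovery rate, all against a single control alignment, per the deposited file descriptions. Each peak has a signal value and a −log10 of a q-value, as deposited by the authors, and a summit offset, in most peaks the middle of the interval. Which aligner and caller were used is not given in the sources used here. With depth unknown, no counting interval could be given. Signals were compared within a list and ranks between lists.

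Summits were assigned to genes by any transcript start of protein-coding genes (Ensembl release 115), and no peak ran past the end of its chromosome. No interval was identical between the replicate lists, and 24.5% of the peaks of replicate 1 had a summit of replicate 2 within 100 bp. The consensus was scanned on both strands of the RefSeq genome in the window of the most upstream start. Assignment and scan were tested on planted peaks and motifs. Python 3.11.15, numpy 2.4.6 and pandas 2.3.3 were used. Members and lists were chosen with earlier results of these data known. The rule for named genes was to name every member by role, those bound and those strongest below the threshold in full, and bound genes of the second list. Alternatives covered the window, a stricter threshold, each replicate alone, the nearest start, interval overlap, matching distance and the consensus. There was no test between groups.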

Additional observations from a re-analysis of the deposited data

How the results depend on the processing

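The count of 7 bound members was 6 with a window of 500 bp upstream to 200 bp downstream, against 1.49% of all genes. With overlap of the peak interval in place of the summit it was 7, against 2.03%. With only the gene of the nearest start it was 5, without mcm-10 and tim-1, against 1.36%. With the strongest 430 peaks of a single replicate it was 8 in replicate 1 (against 1.85%) and 5 in replicate 2 (against 1.65%). It was 4 with the strongest 215 peaks of the reproducible set (against 1.02% of all genes) and 4 with pooled peaks of q below 0.05 (against 1.24%), and both times these were mcm-2, pcn-1, rpa-2 and tim-1. The median of 46.0 over members was 0 in the narrower window, and 24.9 and 26.1 in the lists of replicates 2 and 1, whose signals are on scales of their own. The count of members with a pooled peak, 26, lay between 19 in the narrower window (against 26.2% of all genes) and 30 with interval overlap (against 50.2%). That of members with a summit of both replicates near the pooled one, 16, lay between 13 and 17, with no share over all genes given. The consensus was present at 34 members without its first T (82.9%, against 35.6% of all genes), at 14 with TTTCCCGC and TTTGGCGC only (34.1%, against 10.7%), and at 21 in the narrower window (51.2%, against 10.1%). With the letters of each version reversed, a reading added after seeing the data, it was present at 7 members (17.1%), against 9.71% of all genes. Its count at summits, 5, was 3 within 50 bp (against 2.11% of all pooled summits), 9 within 200 bp (against 7.88%) and 9 without the first T (against 8.98%). No paired analysis was possible because there was a single group.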

Other observations

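The word GCGGTAAA was shared by several summits of the members. On the other strand the word reads TTTACCGC, a single letter away from the consensus versions TTTCCCGC and TTTGCCGC. It was noticed in the sequences, where the longest stretch common to the summit windows of mcm-5 and pcn-1 was gaatgcggtaaa (12 bases) and that of mcm-2 and ctf-4 was gaaatgcggtaaaa (14 bases). On either strand, the word was within 100 bp of the strongest summit at mcm-2, mcm-5, pcn-1 and ctf-4, 4 of 26 members with a pooled peak. It was in the promoter windows of these and of mcm-4, mcm-6 and pri-1, 7 of the 41 members (17.1%), against 2.55% of all protein-coding genes, and in each of the 7 it lay 94 to 221 bp from the start. Of the 430 reproducible summits 9 (2.09%) had it within 100 bp, against 0.419% of the other 29570 pooled summits. These 9 include the summits of mcm-2 and pcn-1, whose windows were among those in which the word was noticed. The word was chosen after these sequences were seen, so the counts carry no test.

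Of the 13 members whose strongest summit also lay in the window of another gene, 2 shared it with a translation elongation factor gene. The rfc-4 and ctf-4 summits, and that of clsp-1 from the second list, were also in the promoter windows of eef-1A.1, eef-1G and eef-2. These were picked out after their values were seen, no list of elongation genes was counted over all genes, and which gene of each pair the summit belongs to was not tested.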
